A study of Homo sapiens with 14 samples.

Results

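AsPC-1 cells treated for 1 h with epidermal growth factor (EGF) were compared with AsPC-1 cells treated for 1 h with angiogenin (ANG, also called ribonuclease 5), to ask how far the early transcript response to the 2 ligands differed. AsPC-1 is a human pancreatic cancer cell line, and its total RNA was sequenced. The serum-starved cells received 50 ng/ml EGF or 1 µg/ml ANG, and an untreated AsPC-1 culture, called mock, served as the reference level. The labels do not give the time at which the mock culture was taken. These are 3 of the 14 libraries of a study that also covered 5 h and 24 h and a further pancreatic cancer line, Panc-1. Of 23040 listed genes, the 11023 with a span of at least 400 bp and at least 1 RPKM (reads per kb of transcript and per M reads mapped) in the EGF or the ANG library were compared. At that limit, BRIP1 with 0.95 RPKM after ANG and 1 after EGF was kept, and AADAT with 0.84 and 0.99 RPKM was not. Each condition was 1 library, so differences within AsPC-1 have no replicate check and carry no test.

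EGF binds the receptor tyrosine kinase EGFR, which signals through the RAS, RAF, MEK and ERK kinases and through PI3K and AKT. Within minutes this switches on the immediate-early genes, which need no new protein synthesis: transcription factors of the FOS, JUN, EGR and NR4A families, followed by phosphatases and other inhibitors that turn the signal down again. Angiogenin is a secreted ribonuclease known for blood vessel growth and for entering the nucleus, and the series title names it as a ligand of EGFR.

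The EGF and ANG libraries of 1 h were alike over most genes and parted on a small group led by immediate-early genes. The difference of log2(RPKM + 1), EGF minus ANG, had a median of 0.01 and an SD of 0.25 over the 11023 genes, and 77.9% of genes lay within 0.25 of zero. At least 2-fold apart on this scale (a difference of 1 or more) were 53 genes, 0.481% of those compared. Of these, 45 were higher with EGF (0.408%) and 8 were lower (0.0726%). At 1.5-fold the counts were 197 higher (1.79%) and 109 lower (0.989%). The scale understates the change of low genes. A pseudocount of 0.1 in place of 1 gave 75 higher and 60 lower genes, and taking in genes under 400 bp gave 74 and 54; both held all 53.

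**Figure D1:**
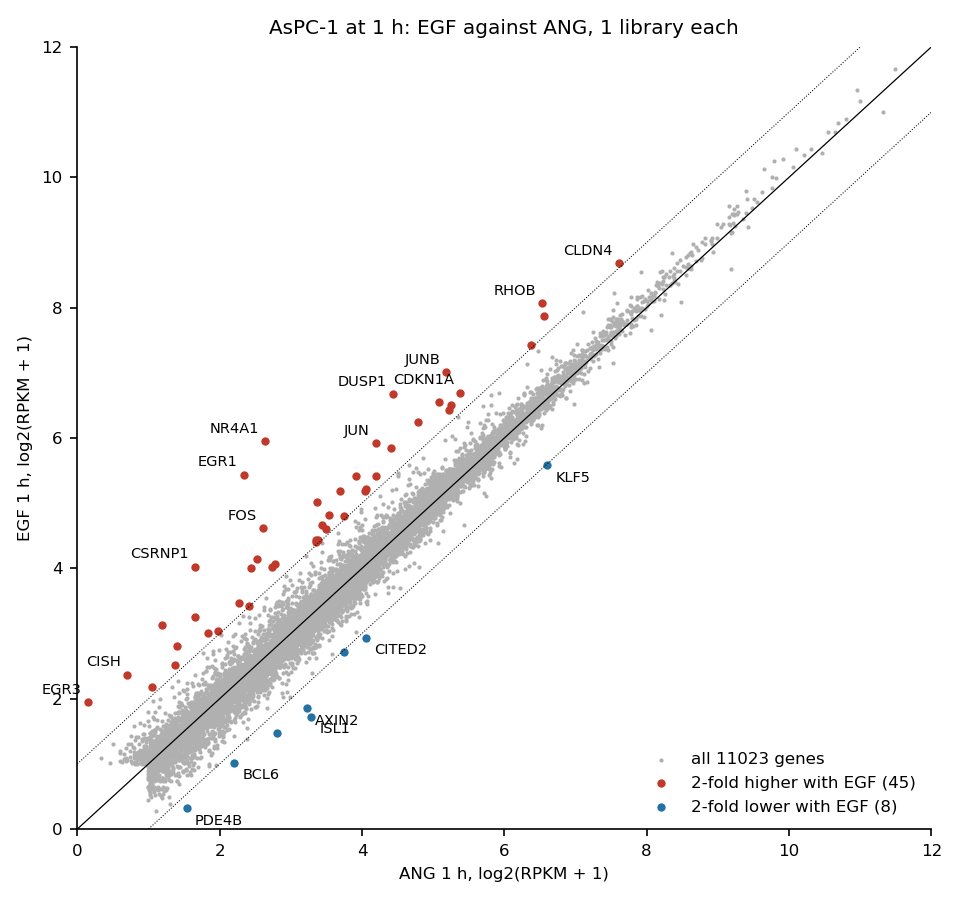
Level of each of the 11023 genes in AsPC-1 after 1 h of ANG (x axis) and of EGF (y axis), both as log2(RPKM + 1), 1 library each. The solid line marks equal levels and the dotted lines a 2-fold difference; the 45 red genes lie above the band and the 8 blue genes below it.

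Without replicates, the distance between other AsPC-1 libraries is the only measure of how far 2 libraries lie apart. ANG at 5 h and at 1 h were 2-fold apart in 0.0272% of genes, and ANG at 24 h and mock in 0.0526%. EGF at 24 h and mock were 2-fold apart in 3.98%. Both libraries of 1 h stood far from the mock: 4.14% of genes were 2-fold higher and 13.7% lower with EGF, and 2.83% higher and 12.6% lower with ANG. ANG and EGF therefore lay far closer to each other than either lay to mock, and values against mock, which share the one mock library, are given below as levels only. Whether that distance comes from the ligands or from the time or state of the mock culture cannot be told apart.

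The largest differences were in transcription factors of the immediate-early class. NR4A1, an orphan nuclear receptor, stood at 2.51 RPKM in mock, 5.22 after ANG and 61.0 after EGF, a difference of 3.32 on the log2 scale. EGR1, a zinc finger factor that ERK signalling induces through serum response factor, stood at 5.40, 4.07 and 42.4 RPKM in the same order (difference 3.10). The ANG library was below or close to mock for EGR1, and the EGF library alone was high. CSRNP1, a nuclear protein of the early response, had 2.68 RPKM in mock, 2.16 after ANG and 15.3 after EGF (2.37).

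The AP-1 factors, which bind DNA as pairs of FOS and JUN proteins, were also highest in the EGF library. FOS had 10.3 RPKM in mock, 5.11 after ANG and 23.6 after EGF (difference 2.01), so that the ANG library lay below mock and the EGF library above it. FOSB stood at 0.66, 1.28 and 7.76 RPKM (1.94). JUNB was at 29.1 RPKM in mock, 35.4 after ANG and 128 after EGF (1.82), and JUN at 12.5, 17.4 and 59.7 (1.72). FOSL1, a slower AP-1 member, was below the 2-fold line, with 18.9 RPKM in mock, 79.0 after ANG and 139 after EGF (0.81), and here both ligands were well above mock. EGR3, a relative of EGR1, was nearly silent in mock (0.14 RPKM) and after ANG (0.11) and reached 2.86 RPKM after EGF (1.80); 1 read in 2 kb of transcript is worth 0.0267 RPKM in the ANG library, so its lower values rest on few reads. The differences of EGR3 and of 2 low genes described further on, CISH and PDE4B, were 3.82, 2.55 and -2.51 with a pseudocount of 0.1.

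Of 25 early transcription factors on a list, 22 reached the level filter, and 9 of them were 2-fold higher with EGF and 1, KLF5, was 2-fold lower. This list, like those below, was chosen with earlier results of these data known, so its counts and median are a description. The median difference of the list was 0.84, beside 0.01 over all genes, and 18 of the 22 lay above 0, where 51.8% of all genes lay. Against mock, the list's median was 1.00 with EGF and -0.02 with ANG. Some members did not follow. MYC, the growth-promoting factor, stood at 153 RPKM in mock, 303 after ANG and 278 after EGF, a difference between ligands of -0.12, with both ligands above mock.

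**Figure D2:**
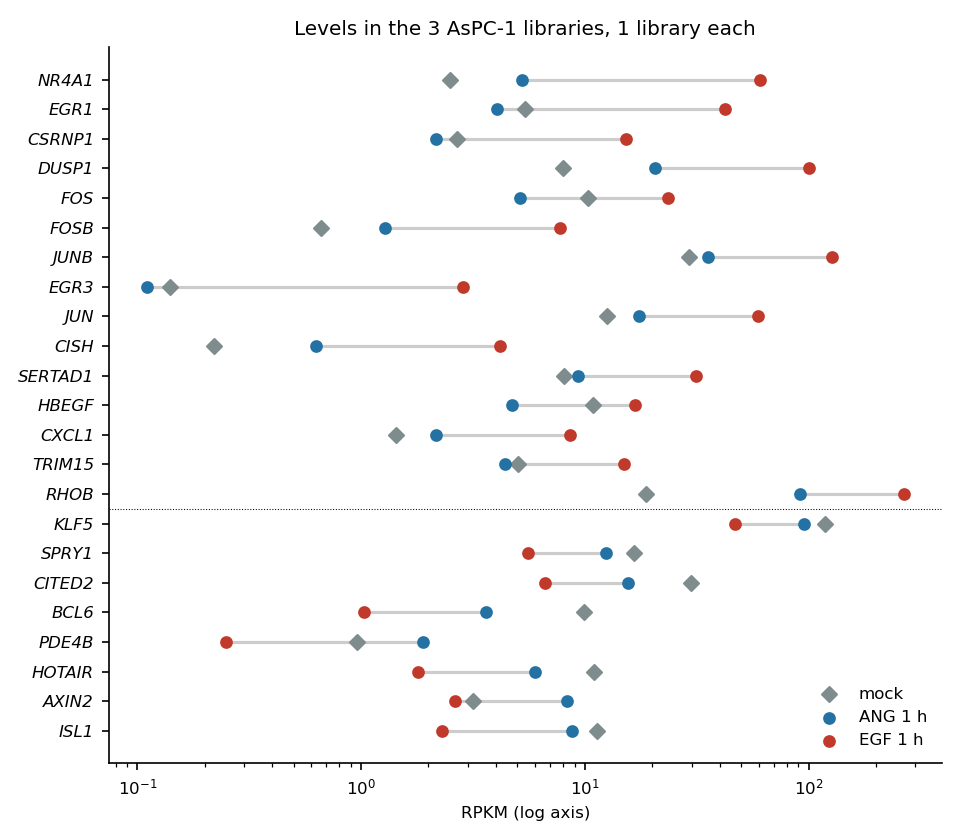
RPKM (log axis) in the AsPC-1 mock (grey diamond), ANG 1 h (blue) and EGF 1 h (red) libraries for the 15 genes with the highest and the 8 genes with the lowest difference, 1 library per point. Above the dotted line the red point is to the right of the blue one, from NR4A1 (5.22 against 61.0 RPKM) to RHOB (91.8 against 267), and the mock lies left of both points or between them.

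Promoter sequences of the higher genes were searched for the elements through which ERK and cAMP signals are known to reach early genes. The search covered 250 bases before to 50 after each gene's start, from RefSeq (GRCh38.p14, while all other positions are in the files' build, hg19), and found an entry for 36 of the 45 higher genes, 6 of the 8 lower genes and 8900 of all 11023. It looked on both strands for the CArG box bound by serum response factor, for the cAMP response element TGACGTCA and for the AP-1 site TGANTCA; a match of one of the last 2 cannot overlap a match of the other. The CArG box was in 1 of the 36 promoters (2.78%) and in 1.09% of all, TGACGTCA in 3 (8.33%) and in 3.44% of all, and TGANTCA in 2 (5.56%) and in 4.38% of all. None of the 6 lower genes held any of the 3 motifs in this window. Of the 8 early transcription factors higher with EGF that had a promoter, EGR1 alone held a CArG box. A match is a run of letters and not a shown site, and these shares rest on 1 to 3 genes.

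For each motif the higher gene with the largest difference is shown, as the 250 bases before its start on the gene's strand, 5′ to 3′, with the matches in capitals. EGR1 (chr5:138465229-138465478, plus strand) holds CArG boxes that begin at -105 and -83, DUSP1 (chr5:172771196-172771445, minus strand) the cAMP element at -125, and IL8 (chr4:73740319-73740568, plus strand) an AP-1 site at -137, all in GRCh38.p14 and counted from the start. DUSP1 and IL8 were chosen after the search.
EGR1: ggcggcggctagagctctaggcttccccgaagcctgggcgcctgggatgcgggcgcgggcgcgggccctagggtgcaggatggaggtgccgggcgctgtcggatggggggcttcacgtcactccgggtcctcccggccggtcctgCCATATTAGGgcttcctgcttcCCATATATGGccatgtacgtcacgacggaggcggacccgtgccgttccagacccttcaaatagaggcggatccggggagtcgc
DUSP1: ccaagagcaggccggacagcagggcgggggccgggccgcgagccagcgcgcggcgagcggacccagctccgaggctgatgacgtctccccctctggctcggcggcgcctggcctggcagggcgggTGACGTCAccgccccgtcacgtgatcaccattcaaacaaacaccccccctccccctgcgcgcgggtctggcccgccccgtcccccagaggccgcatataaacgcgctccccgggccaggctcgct
IL8: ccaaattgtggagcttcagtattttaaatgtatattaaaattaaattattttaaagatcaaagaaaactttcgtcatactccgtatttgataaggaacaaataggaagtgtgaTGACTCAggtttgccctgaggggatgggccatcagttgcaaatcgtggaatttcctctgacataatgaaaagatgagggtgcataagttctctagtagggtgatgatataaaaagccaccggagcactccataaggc

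Other immediate-early genes were split. On a list of 24, 22 were measured, 7 were 2-fold higher with EGF and none lower, and the median difference was 0.27. RHOB, a small GTPase of the actin and endosome systems, stood at 18.8 RPKM in mock, 91.8 after ANG and 267 after EGF (1.53), with both ligands above mock and EGF highest. SERTAD1, a transcriptional co-regulator, stood at 8.09, 9.37 and 31.4 RPKM (1.64), and IER2, an early nuclear protein, at 29.2, 36.4 and 85.3 (1.21). MCL1, which protects cells from apoptosis, had 90.1 RPKM in mock, 81.6 after ANG and 171 after EGF (1.05). PLK3, IER5 and PPP1R15A were the other members past 2-fold, with differences of 1.17, 1.08 and 1.15. The list also held genes at or below zero, among them NFKBIZ (-0.59), PLK2 (-0.37) and CTGF (-0.02).

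The inhibitors that feed back on the ERK pathway differed less than its first targets and did not move as one. DUSP1, a phosphatase that inactivates MAP kinases, stood at 8.0 RPKM in mock, 20.7 after ANG and 100.78 after EGF (2.23). ERRFI1, an inhibitor of EGFR itself, was at 54.5, 21.6 and 43.1 RPKM (0.96), so the ANG library was the lowest of the 3. DUSP6, the phosphatase most specific to ERK, was highest in mock, with 215 RPKM, against 91.8 after ANG and 72.9 after EGF (-0.33). SPRY1, a Sprouty inhibitor of receptor tyrosine kinase signalling, was among the 8 lower genes, at 16.6, 12.5 and 5.59 RPKM (-1.03). Of 20 measured genes on the feedback list, DUSP1 was 2-fold higher and SPRY1 2-fold lower, 15 lay above 0 and the median was 0.20.

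Among the ERBB receptors and their ligands, 7 of 13 listed genes in the file were measured and HBEGF alone was 2-fold apart. HBEGF, a membrane-bound growth factor that binds EGFR, stood at 10.9 RPKM in mock, 4.74 after ANG and 16.7 after EGF (1.63). EGFR was at 146, 96.0 and 91.2 RPKM (-0.07), below mock with both ligands and nearly equal between them. TGFA, a further EGFR ligand, was at 27.9, 126 and 141 RPKM (0.16). Of the transcripts tied to angiogenin, none was 2-fold apart. PLXNB2, reported as an angiogenin receptor, stood at 62.7, 53.3 and 62.5 RPKM (0.23), and RNH1, the ribonuclease inhibitor, at 71.3, 81.9 and 90.0 (0.13). ANG, whose span overlaps that of RNASE4 so that reads may be shared, was at 2.47, 1.56 and 1.86 RPKM (0.16).

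Secreted signals of inflammation and growth made up a further group. Of 13 measured chemokines and cytokines, 4 were 2-fold higher with EGF, none was 2-fold lower, and the median was 0.57. With no filter on low values, which takes in listed genes under 1 RPKM, the median was 0.07. CXCL1, a neutrophil attractant, stood at 1.44 RPKM in mock, 2.16 after ANG and 8.59 after EGF (1.6); its close relatives CXCL2 and CXCL3 differed by 0.57 and 0.97, and reads of the 3 may be split between them. LIF, a cytokine of the interleukin 6 family, was far more abundant, at 24.7, 37.1 and 89.8 RPKM (1.25). IL8 (CXCL8) was at 0.81, 2.57 and 7.06 (1.17), and CCL20 at 3.09, 1.58 and 4.74 (1.15). Outside the list, the LIF relative CLCF1 (5.17, 11.98 and 35.6 RPKM, 1.5) and the neurotrophic factor ARTN (7.04, 10.2 and 23.3 RPKM, 1.11) were also 2-fold higher. Of 14 measured NF-kB genes, 10 lay above 0, with a median of 0.12, and BCL3, a nuclear co-activator of NF-kB, was the one member past 2-fold (6.93, 9.86 and 24.4 RPKM, 1.22).

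Growth arrest and survival genes gave single members. Of 11 measured BCL2 family genes, MCL1 was the 1 past 2-fold, 8 lay above 0 and 3 below, with a median of 0.23. BIK, BBC3 and BAK1 of this family differed by 0.76, 0.60 and 0.54. CDKN1A, the p21 inhibitor of cyclin-dependent kinases, stood at 24.3 RPKM in mock, 40.8 after ANG and 103 after EGF (1.31). CDKN1B, the p27 inhibitor, was at 33.8, 11.0 and 5.42 RPKM (-0.90), so that the 2 inhibitors differed in opposite directions. CCND1, cyclin D1, was at 64.6, 234 and 233 RPKM (-0.01), equally above mock with both ligands. CISH and SOCS3, which inhibit cytokine receptor signalling, stood at 0.22, 0.63 and 4.16 RPKM (1.66) and at 2.69, 2.94 and 7.24 RPKM (1.06). DDIT4, an inhibitor of mTORC1, had 21.4 RPKM in mock, 20.3 after ANG and 56.5 after EGF (1.43).

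Among surface proteins, EPHA2 and CLDN4 were 2-fold higher with EGF. EPHA2, an ephrin receptor kinase, was at 77.1 RPKM in mock, 93.3 after ANG and 234 after EGF (1.32). CLDN4, a tight junction protein abundant in pancreatic cancer cells, was at 270, 194 and 410 RPKM (1.07). PLAUR, the urokinase receptor, fell just short of the 2-fold line with 41.3, 39.7 and 79.4 RPKM (0.98), and its ligand PLAU stood at 30.3, 50.8 and 89.4 (0.80). Of 18 measured invasion genes 13 lay above 0 and 5 below, ITGA2 (-0.29) and CD44 (-0.25) lowest, with a median of 0.17. None of these 18 and none of 21 measured cytoskeletal targets of serum response factor and YAP was 2-fold apart, although all 21 of the latter lay above 0 with a median of 0.24.

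The other genes 2-fold higher with EGF, most of them named after their values were seen, included the BMP target ID1 (16.5, 32.9 and 92.9 RPKM in mock, ANG and EGF), the kinase SIK1 (10.8, 10.6 and 27.3), the ribonuclease ZC3H12A (6.30, 5.85 and 15.7), the epithelial factor OVOL1 (1.82, 1.63 and 6.01), the lipase inhibitor G0S2 (5.56, 17.4 and 41.9) and the flow-responsive factor KLF2 (0.89, 3.82 and 10.1). ANKRD57, MIDN, TRIM15, TICAM1, AKR1B10, LOC100289255 and ITPKC completed the set of protein-coding and unnamed loci. ITPKC, at 1.01, was the higher gene nearest the line, and HIST1H2AJ, at 0.99, lay just under it. The last members, the small nuclear RNA genes RNU5D (6.06, 9.38 and 20.6 RPKM) and RNU5E, are listed with overlapping spans of 245256 and 245257 bp and nearly identical values, and count as 1 uncertain signal. Of the 45, 26 were on a list and 19 on none.

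The 8 genes lower with EGF held regulators of development, of Wnt signalling and of the PI3K and FOXO axis. ISL1, a homeobox factor of the endocrine pancreas, stood at 11.4 RPKM in mock, 8.76 after ANG and 2.30 after EGF (-1.56). AXIN2, a negative-feedback target of Wnt signalling, was at 3.16, 8.33 and 2.62 RPKM (-1.37), so the ANG library was high and EGF lay near mock. HOTAIR, a long non-coding RNA of the HOXC cluster, was at 11.0, 5.98 and 1.79 RPKM (-1.32), and whether reads were counted by strand is not given in the sources used here.

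BCL6, a transcriptional repressor induced by FOXO factors, stood at 9.89 RPKM in mock, 3.62 after ANG and 1.03 after EGF (-1.19). CITED2, a co-regulator that FOXO factors also induce, was at 29.9, 15.6 and 6.65 RPKM (-1.12). Both were highest in mock, intermediate with ANG and lowest with EGF. KLF5, a Krüppel-like factor of epithelial growth, was the most abundant of the 8, at 119, 95.9 and 46.9 RPKM (-1.02), and PDE4B, a phosphodiesterase that degrades cAMP, the least, at 0.96, 1.90 and 0.25 (-1.21). KLF5 was the lower gene nearest the line; ZNF33B, at 4.2 RPKM with ANG and 1.6 with EGF, just missed it.

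Of 16 measured genes of the insulin receptor, PI3K inhibitor and FOXO list, BCL6 and CITED2 were 2-fold lower and none higher, 10 lay below 0 and the median was -0.23. The list's medians against mock were -1.22 with EGF and -0.81 with ANG. PDK4, a mitochondrial kinase and FOXO target, was at 13.3, 4.66 and 2.68 RPKM (-0.62). GADD45A, 1 of the 6 members above 0, went the other way, at 4.60, 2.39 and 4.24 RPKM (0.63). In Panc-1 at 1 h the list's median of EGF minus ANG was -0.003. Of 6 measured Wnt target genes, 5 lay below 0 and the median was -0.35, or -0.03 with no filter on low values. RNF43, which removes Wnt receptors, was at 3.53, 5.34 and 2.62 RPKM (-0.81) and DKK1, a secreted Wnt inhibitor, at 456, 580 and 386 (-0.59).

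**Figure D3:**
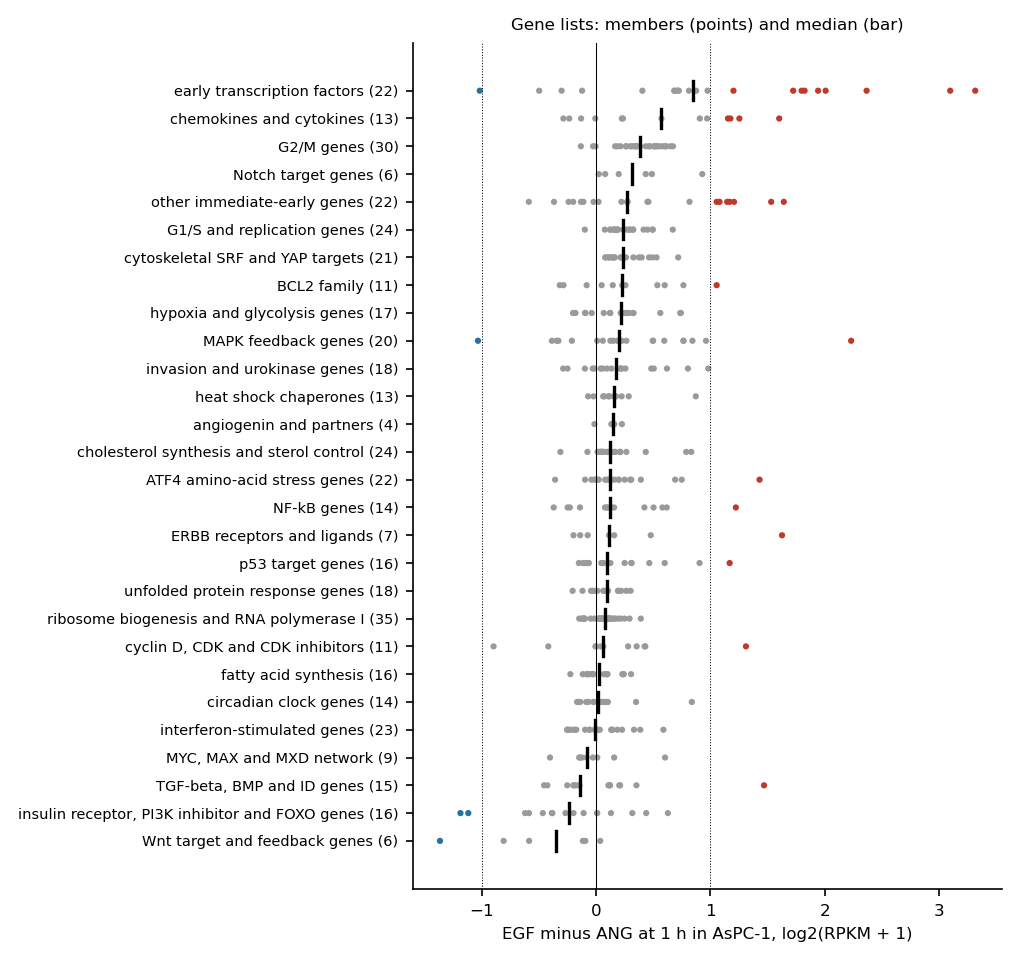
EGF minus ANG at 1 h in AsPC-1 on the log2(RPKM + 1) scale (x axis) for the measured members (points; number in brackets) of each gene list with at least 3 of them, with the median as a bar and dotted lines at 2-fold. The early transcription factors have the highest median (0.84) and the Wnt targets the lowest (-0.35).

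Metabolic, ribosome and interferon programmes were nearly level between the ligands, and proliferation genes less so. Cholesterol synthesis genes had a median difference of 0.12 with 22 of 24 above 0 and none past 2-fold, among them the sterol sensor partner INSIG1 (11.6, 6.95 and 13.2 RPKM, 0.83) and the synthesis enzyme HMGCS1 (26.2, 12.7 and 17.5 RPKM, 0.43). Medians were 0.07 for 35 ribosome biogenesis genes, 0.02 for 16 fatty acid synthesis genes and -0.01 for 23 interferon-stimulated genes. Proliferation genes were mostly higher with EGF: 27 of 30 G2/M genes lay above 0 with a median of 0.38, and 23 of 24 G1/S genes with a median of 0.24, none past 2-fold. The G2/M median was above the 0.27 of the other immediate-early genes. Both libraries were far below mock for the G2/M list, with medians of -2.63 for EGF and -3.06 for ANG. The G2/M median of EGF minus ANG was -0.45 in AsPC-1 at 5 h and -0.02 in Panc-1 at 1 h. In bulk RNA, fewer cells of a type, such as dividing cells, and less RNA per cell cannot be told apart.

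Endothelial and acinar markers were near 0, while some markers of the other lists were abundant. The summed level of 12 epithelial markers was 3557 RPKM in mock, 2902 after ANG and 3652 after EGF. The mesenchymal list, almost all of it VIM, summed to 1421, 1333 and 1478 RPKM. On that list SNAI2 stood at 22.4 RPKM in mock, 55.4 after ANG and 89.9 after EGF (0.69), and ZEB1 at 11.2, 9.22 and 6.10 (-0.53). Endothelial markers summed to at most 0.19 RPKM and acinar markers to at most 0.74. Of the fibroblast list, LUM made up most of the 46.7, 31.0 and 30.3 RPKM, and of the leukocyte list LYZ most of the 504, 95.8 and 110 RPKM, with 4 or 5 of its 8 genes at 0 in each. Their part in the 53 differences was not tested. Estimated depth was 20.9 M reads for EGF, 18.7 M for ANG and 23.7 M for mock, within 11.1 to 23.7 M over all 14 libraries. Genes shorter than 400 bp, which were left out, took 12.6% of reads with EGF, 15.5% with ANG and 6.03% in mock, and their part in the differences was tested only by rescaling, which left 44 genes higher and 12 lower.

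The higher genes were short and common on chromosome 19. Their median span was 5378 bp, against 26516 bp for all genes compared, and 40 of the 45 were under 15 kb, where 34.3% of all genes were. Chromosome 19 held 10 of the 45 (22.2%) and 6.48% of all genes, among them FOSB (hg19, chr19:45971253-45978437), JUNB (chr19:12902310-12904125) and IER2 (chr19:13261282-13265718). NR4A1 lies on chromosome 12 (52445191 to 52453287) and FOS on chromosome 14 (75745481 to 75748937), and these spans cover whole genes with introns. The median span of the 8 lower genes was 15070.5 bp. Both sets were spread over levels: 1 of the 45 had a mean under 2 RPKM, 12 lay from 2 to 10, 21 from 10 to 50 and 11 at 50 or more. The SD over all genes went from 0.28 in the lowest class to 0.21 in the highest. Their median difference rose with level, at -0.06, -0.02, 0.02 and 0.09 in these classes. The gene lists were not matched for level, so small positive medians of lists of abundant genes are to be read beside these values.

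The other 5 pairs of EGF and ANG libraries share no library with the 1 h pair of AsPC-1, and so give the direction again. Higher with EGF in each were, of the 45 genes, 40 in AsPC-1 at 5 h, 38 in AsPC-1 at 24 h, 38 in Panc-1 at 1 h, 38 in Panc-1 at 5 h and 29 in Panc-1 at 24 h. Over all genes the shares higher in these pairs were 61.1%, 35.5%, 59.7%, 38.8% and 57.6%. These counts take in genes under the level filter: in the same order, 44, 41, 39, 33 and 34 of the 45 reached 1 RPKM. The same direction in all 5 was found for 22 genes, among them NR4A1, EGR1, CSRNP1, DUSP1, FOSB, JUNB, HBEGF, EPHA2, CDKN1A, LIF, IER2 and MCL1. The share of all genes higher in all 5 was not counted. In Panc-1 at 5 h NR4A1 was at 0.23 RPKM with ANG and 0.57 with EGF, and FOSB at 0.22 and 0.64, so such signs rest on low values.

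The size of the difference was kept less often than its direction. Past 2-fold higher were 12 of the 45 in Panc-1 at 1 h (0.43% of all genes in that pair), 10 in AsPC-1 at 24 h (0.975%), 4 in AsPC-1 at 5 h (0.228%), 2 in Panc-1 at 5 h (0.199%) and 0 in Panc-1 at 24 h (0.152%). EGR1 differed by 3.59 in Panc-1 at 1 h, from 1.49 RPKM with ANG to 29.1 with EGF, and FOSB from 0.38 to 31.3 RPKM. Some differences were seen in AsPC-1 and not in Panc-1: CISH was at 0.10 and 0.09 RPKM in Panc-1 at 1 h, TRIM15 at 0.08 and 0.00, and OVOL1 at 0.00 and 0.02, so these genes were near silent there, and the dependence on the line was not tested. DUSP6 went the other way, with 1.68 in Panc-1 at 1 h against -0.33 in AsPC-1.

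Of the 8 lower genes, 8 were also lower in AsPC-1 at 5 h, 7 at 24 h and 4 in Panc-1 at each time. Over all genes the shares lower were 38.6% and 64.2% in these AsPC-1 pairs. In Panc-1 they were 39.3%, 60.4% and 41.8% at 1, 5 and 24 h, and 6 of the 8 reached 1 RPKM in each Panc-1 pair. Past 2-fold lower were 3 in AsPC-1 at 24 h (2.42% of all genes in that pair), SPRY1, BCL6 and HOTAIR, and none in the pairs of AsPC-1 at 5 h (0.191%) or of Panc-1 at 1 h (0.0689%), 5 h (0.0173%) and 24 h (0.0932%). HOTAIR and AXIN2 were lower in all 5. HOTAIR stood at 6.55 RPKM with ANG and 4.38 with EGF in Panc-1 at 1 h, and AXIN2 at 2.40 and 1.08. ISL1, at 0.17 and 0.27 RPKM, and PDE4B, at 0.07 and 0.06, were nearly silent in Panc-1.

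**Figure D4:**
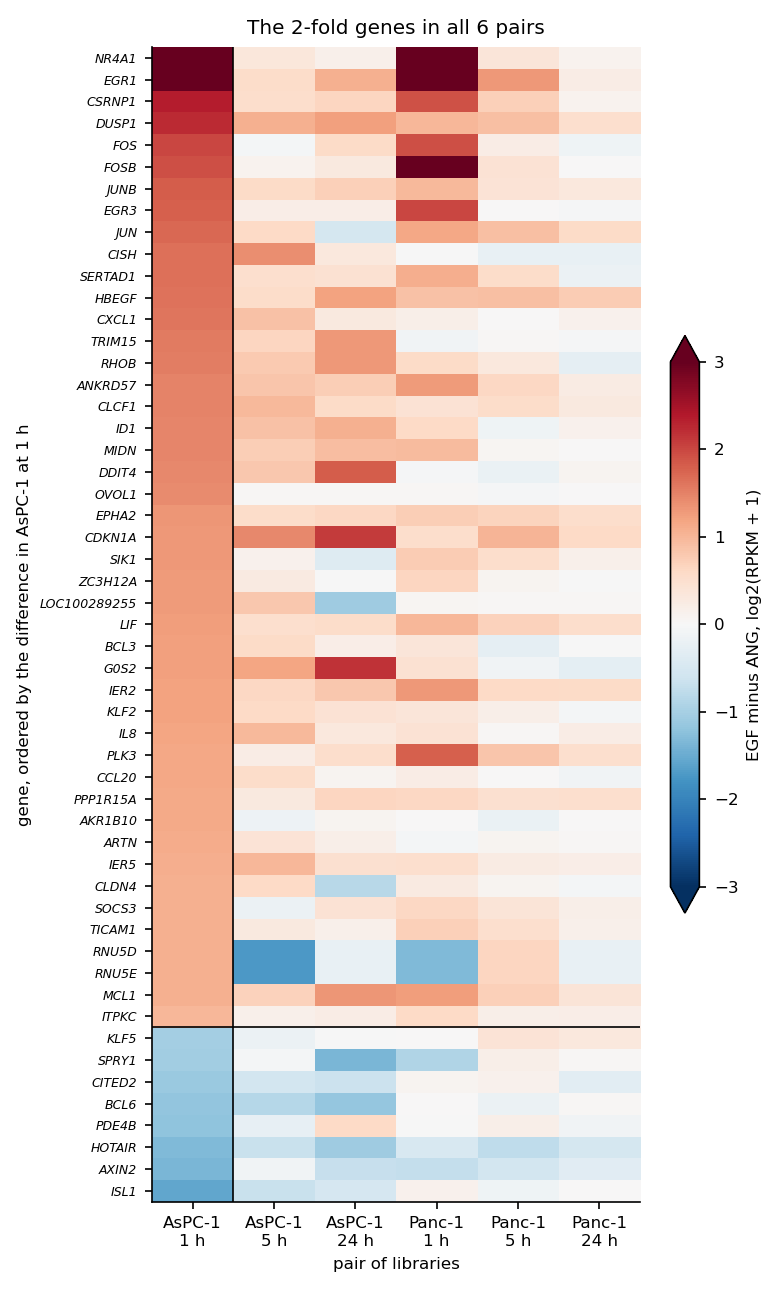
EGF minus ANG on the log2(RPKM + 1) scale (colour, red higher with EGF; values past 3 take the end colour) for the 53 genes (rows) in the 6 pairs of line and time (columns). The first column is the pair that chose the genes; the Panc-1 1 h column shows NR4A1 and EGR1 as dark as in AsPC-1 and FOSB darker, and RNU5D and RNU5E are blue at AsPC-1 5 h and Panc-1 1 h.

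A test was possible over the 2 lines, with limma on the 6 within-pair differences and the spread between lines shared by the 3 times. At 1 h, 9 of 12622 genes (0.0713%) passed as higher with EGF at an adjusted p under 0.05 and 0 (0%) as lower. At an unadjusted p under 0.05 limma gave 329 higher and 116 lower. These 445 of 12622 genes are a smaller share than the 0.05 that would pass if no gene differed. NR4A1 was higher by 3.22 ± 0.13 (SE, limma adjusted p = 7.84e-05), EGR3 by 1.91 ± 0.13 (0.00241) and EGR1 by 3.35 ± 0.25 (0.00398), each of them in both lines. CSRNP1, IER2, FOS, LIF, ANKRD57 and HES1 also passed, with limma adjusted p from 0.00534 to 0.0204. HES1, a repressor best known as a Notch target, was not among the 45, with 14.5, 24.2 and 47.1 RPKM in the AsPC-1 mock, ANG and EGF libraries (0.93). Since the AsPC-1 pair that chose the 45 genes enters this fit, the 8 of them that passed are a description. Without that pair 8 genes passed as higher and 1 as lower, with NR4A1, EGR1 and EGR3 again among the higher; without the Panc-1 pair of 1 h NR4A1 alone passed. In these 2 fits the remaining pair of 1 h is assumed to vary like those of the other times. With no filter on low values, over 21480 genes, none passed, and with the pairs of 1 h and 5 h alone 71 passed as higher and 7 as lower.

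Over the AsPC-1 time points, the difference of the 45 genes was smaller at 5 h and 24 h. They were chosen on their levels at 1 h, so this course is a description. From 1 h to 5 h the 45 genes had a median change of -0.60 with EGF, 42 of them downwards and 11 by at least 2-fold, where 0.956% of all genes were 2-fold lower at 5 h. With ANG the median was 0.25, and 42 were above their level of 1 h, 2 by at least 2-fold. These 2 were RNU5D and RNU5E, counted above as 1 uncertain signal, and 0.0272% of all genes were 2-fold apart either way. The shares of all genes that merely fell with EGF or rose with ANG were not counted. The median difference between ligands was 0.55 at 5 h and 0.47 at 24 h. NR4A1 stood at 61.0, 11.2 and 3.70 RPKM at 1, 5 and 24 h of EGF and at 5.22, 8.68 and 3.22 with ANG. EGR1 stood at 42.4, 7.33 and 12.9 with EGF and at 4.07, 4.73 and 5.61 with ANG.

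Some genes kept their distance. CDKN1A was at 103, 156 and 108 RPKM over 1, 5 and 24 h of EGF and at 40.8, 57.3 and 24.4 with ANG, and its difference was 1.31, 1.43 and 2.10. G0S2 was at 41.9, 64.0 and 31.5 with EGF and at 17.4, 27.8 and 6.23 with ANG, with a difference of 2.17 at 24 h. DUSP1 differed by more than 2-fold at each time, with 100.78, 64.2 and 21.6 RPKM for EGF and 20.7, 29.9 and 8.56 for ANG. For the 8 lower genes, the EGF level at 5 h was a median of 0.57 above that of 1 h. AXIN2 went from 2.62 RPKM at 1 h of EGF to 6.79 at 5 h, next to 8.33 and 7.34 with ANG, while BCL6 stayed low with EGF, at 1.03 and 1.07 against 3.62 and 2.77.

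**Figure D5:**
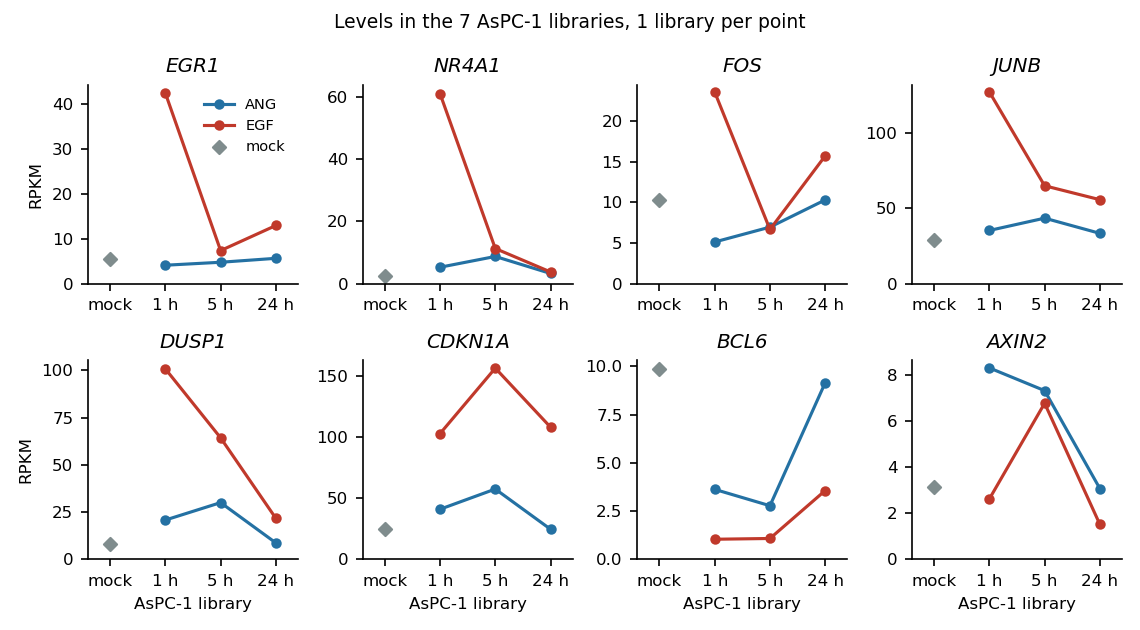
RPKM of 8 genes in the 7 AsPC-1 libraries: mock (grey diamond, time not given) and ANG (blue) or EGF (red) at 1, 5 and 24 h, 1 library per point, x axis not to scale in time. EGR1, NR4A1 and FOS with EGF are highest at 1 h and nearer the ANG line at 5 h. At 24 h EGR1 (12.9 RPKM with EGF, 5.61 with ANG) and FOS (15.7 and 10.3) are further apart again, and NR4A1 (3.70 and 3.22) is not. CDKN1A with EGF stays above ANG at each time.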

How the data were processed

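Total RNA was extracted with TRIzol, per the labels' protocols, and 3 AsPC-1 libraries (EGF 1 h, ANG 1 h, mock) were compared, with the other 11 as context. The authors deposited log2 RPKM per gene, per the file headers, on the build hg19 that the submitters' processing notes name. Which aligner and counter were used, and whether by strand, is not given in the sources used here. Values were turned back to RPKM, with log2 -8.966 read as 0. Depth was estimated from the steps of genes spanning at most 150 bp. Differences used log2(RPKM + 1) and, within AsPC-1, no test.

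limma 3.58.1 in R 4.3.3, with a variance trend, was fitted to the 6 EGF minus ANG differences with 1 coefficient per time, on 12622 genes with 1 RPKM in 2 libraries, with Benjamini-Hochberg adjustment at 0.05. Nothing in the labels shows separate cultures, so p reflects the spread of these pairs alone. The fit leaves 3 residual degrees of freedom per gene, to which limma adds information on the variance from all genes tested. On simulated data for this comparison it recovered 77% of genes changed 2-fold and 96% of those changed 4-fold, with 15 false among 188 calls. The simulation drew independent normal noise for each gene and gave both lines the same change. It therefore does not cover genes whose response differs between lines or that vary together, and recovery of real genes was not tested. In the real fit FOSB (3.25, limma adjusted p = 0.0905) and DUSP1 (1.61, limma adjusted p = 0.125) did not pass.

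The members and the gene lists were chosen with earlier results of these data known. Named genes were the 15 highest and the lowest differences past 2-fold, up to 4 members per list by size and a fixed set of pathway genes; the rest of the 53 and other list members were named after their values were seen. The rule for printing promoters named early transcription factors; EGR1 is the one of these with a match. Alternatives covered the pseudocount, the filters on level and span, centring, rescaling, the pairs in the fit and a term for the line.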

Additional observations from a re-analysis of the deposited data

Results flagged for a closer look

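RNU5D was 2-fold higher with EGF in AsPC-1 at 1 h and differed by -1.73 in AsPC-1 at 5 h and by -1.33 in Panc-1 at 1 h. RNU5E, its near copy, differed by -1.72 and -1.33 in the same pairs. LOC100289255, also higher with EGF at 1 h in AsPC-1, differed by -1.07 there at 24 h. They stand here because the sign was opposite by at least 2-fold between pairs, each of 1 library a side, and the difference between pairs was not tested. The genes shorter than 400 bp, which the comparison left out, took 12.6% of the reads with EGF and 15.5% with ANG, above the 6.03% of the mock library. Of 527 such genes at 1 RPKM or more, 29 were 2-fold higher and 46 lower with EGF.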

How the results depend on the processing

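All 45 higher and 8 lower genes were found again with a pseudocount of 0.1 RPKM, with no filter on low values and with no filter on span. The pseudocount of 0.1 gave 75 higher and 60 lower in all, and taking in genes shorter than 400 bp gave 74 higher and 54 lower. Centring gave 45 and 9, rescaling to reads of genes of at least 400 bp 44 and 12, and a filter of 5 RPKM 41 and 6. None of the 155 named differences changed sign under these settings, where measured, and 4 moved by 1.5-fold or more, all with the pseudocount of 0.1: EGR3 to 3.82, CISH to 2.55, PDE4B to -2.51 and BBC3 to 1.19. None of the 28 list medians moved by 1.5-fold or more, but some came close to 0 with no filter on low values. Chemokines and cytokines went from 0.57 to 0.07, Notch targets from 0.32 to 0.06 and Wnt targets from -0.35 to -0.03. The limma count of higher genes was 16 with that pseudocount, 0 with no filter on low values, 71 with the pairs of 1 h and 5 h alone (7 lower) and 25 with a term for the line. Leaving out the 1 h pair of either line gave 1 to 8 higher and 0 to 1 lower genes. The cause of these shifts was not tested. The limma fit itself works within pairs of line and time, and no block by replicate could be added, since the labels number no replicates. With 1 read in 2 kb worth 0.0239 RPKM with EGF and 0.0267 with ANG, differences of genes under 1 RPKM rest on few reads.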
